A study of Mus musculus with 24 samples.

Results

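Gene expression in microvessels of the ipsilateral, that is the occluded, hemisphere was compared between 24 h and 7 days after stroke. The libraries were chosen by their labels: 3 ipsilateral libraries taken 24 h and 3 taken 7 days after transient middle cerebral artery occlusion (tMCAO), 6 of the 24 libraries in the series. All groups were male C57BL/6J mice aged 10 to 12 weeks. In tMCAO mice a coated filament blocked the right middle cerebral artery for 60 min, and in sham mice it was pulled back at once on reaching that artery. Mice of both kinds were kept warm and received buprenorphine before surgery and at intervals in the first days after it. Dosing had thus ended by day 7 but not by 24 h. Saline and feeding support followed the condition of each animal. Each library held microvessels from 3 pooled hemispheres, so a group of 3 libraries stands for 9 mice, and the authors had left out libraries they judged outliers. The 24 h and 7 day libraries came from different mice, and the 7 day mice are those that lived to that day. Microvessel preparations from whole hemispheres hold endothelial cells, mural cells and attached glia from infarct and surrounding tissue alike. The sham ipsilateral libraries at the same times served as the background of the time comparison, and the contralateral libraries of the same tMCAO pools as a second one.

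The endothelium of brain capillaries forms the blood-brain barrier: it seals the space between cells with tight junctions, keeps vesicle traffic low and moves nutrients and drugs through dedicated transporters, under Wnt signals from its surroundings and with support from pericytes and astrocytes. After ischemia and reperfusion the vessel wall releases cytokines and chemokines, proteases cut its basement membrane, and leukocytes attach and enter. In the following days debris is cleared, cells divide and barrier functions are rebuilt, which is why the step from 24 h to 7 days is of interest.

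The 6 libraries held 16257620 to 18787932 normalized counts, that is reads per gene divided by a size factor per library. The reads estimated from these values were 13692318 to 16885593 at 24 h and 17789031 to 19973466 at 7 days, so all 7 day libraries were deeper. Endothelial markers were the most abundant of the 16 marker panels examined, with a sum over 15 genes of 313639 to 349480 normalized counts at 24 h and 380232 to 454258 at 7 days. Replicates correlated across genes with r of 0.9735 to 0.9821 at 24 h and 0.9771 to 0.9846 at 7 days, and the 24 h library with the fewest reads, replicate 1, had the lowest correlations. The labels do not say more of how replicates were kept apart than that the mice were pooled, so p-values measure the spread between pools.

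The test covered 15982 genes whose mean exceeded 5. At 7 days 594 of them were higher than at 24 h (3.72%) and 1349 were lower (8.44%). The rule was an adjusted p under 0.05 by Benjamini-Hochberg (limma with a mean-variance trend) and a change beyond 1.5-fold. Genes that pass this rule are said below to have risen or fallen. Counts of list members given below are to be read against these shares of all tested genes, 3.72% and 8.44%. Large changes were mostly decreases, with 178 genes lower and 34 higher by over 2 on the log2 scale. The 3 libraries of each time did not overlap in 5460 genes (34.2%), and in 1834 of the 1943 called genes. The same comparison in sham mice called 48 genes higher (0.3%) and 28 lower (0.175%). In the contralateral hemispheres of the tMCAO mice limma called 0 genes higher and 0 lower (0.0% each), with 2634 genes at an unadjusted p under 0.05 and 34 genes called once libraries were weighted by quality. The difference between the tMCAO and the sham change was itself called for 389 genes in the positive direction (2.43%) and for 908 in the negative direction (5.68%). The split between rising and falling genes depends on scaling: the library medians lay 0.105 lower at 7 days on the log2 scale, and setting them equal gave 939 higher and 1033 lower genes, 47.6% higher in place of 30.6%. Without 24 h replicate 1 the counts were 338 higher and 798 lower. Where a call is given below as lost at an adjusted p under 0.05, it was the log2 change that came within the limit.

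**Figure D1:**
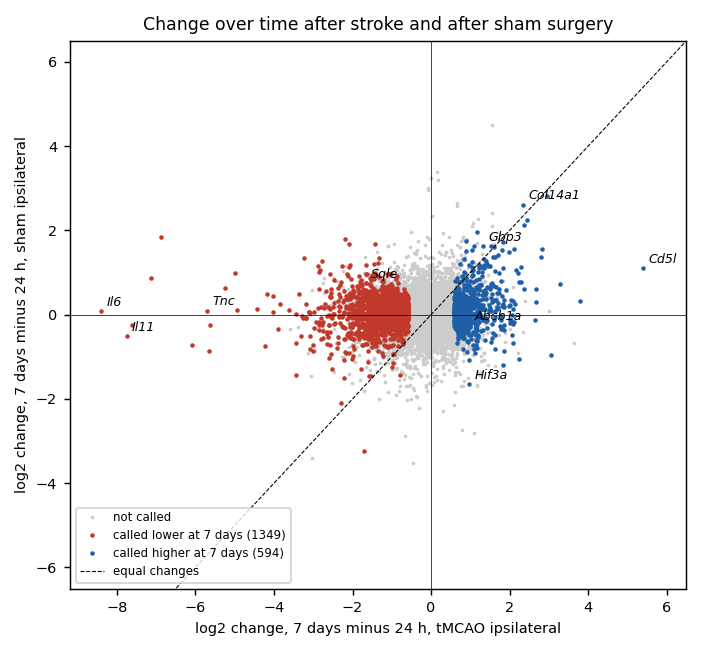
Each point is 1 of the 15982 tested genes, with the log2 change from 24 h to 7 days in ipsilateral tMCAO libraries on the horizontal axis and in ipsilateral sham libraries on the vertical axis (3 libraries a group). Red and blue points are the 1349 genes lower and 594 higher at 7 days after tMCAO, grey points were not called, and the dashed line marks equal changes. Most red points lie near 0 on the sham axis, whereas Col14a1 and Gbp3 lie near the line.

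Cytokines of the interleukin 6 family were among the largest decreases. Il6 (chr5:30013114-30019981), an acute-phase cytokine that signals through gp130, had 780, 1070 and 468 at 24 h and 4, 1 and 0 at 7 days, in normalized counts as throughout (log2 change -8.41, SE 1.09, adjusted p = 4.79e-05). Every 24 h library was far above every 7 day library. Il11 (chr7:4772373-4782857), a related ligand, had 3160, 3280 and 1977 at 24 h and 16, 10 and 10 at 7 days (log2 change -7.75, SE 0.59, adjusted p = 3.09e-07). Lif (chr11:4257557-4272514), which acts through the same receptor chain, had 755, 559 and 324 at 24 h and 6, 2 and 3 at 7 days (log2 change -6.88, SE 1.04, adjusted p = 0.000185). In sham mice the means of these 3 genes stayed between 7.67 and 30 normalized counts, and for all 3 the tMCAO change was more negative than the sham change, with log2 differences of -8.49 for Il6, -7.24 for Il11 and -8.73 for Lif. Csf3, the growth factor of granulocytes, had 1086, 619 and 439 at 24 h and 62, 8 and 3 at 7 days (log2 change -5.67, SE 1.59, adjusted p = 0.0171). Of the 23 tested genes in the list of interleukins and interleukin 6 family ligands 8 fell and 2 rose. This list also holds TNF superfamily members such as Tnfsf9 and Tnfsf10. The other 4 that fell were Il1rn, the antagonist of the interleukin 1 receptor, Tnfsf9, Ctf1 and Clcf1. Tnfsf10 and Il15, a cytokine for lymphocytes, rose. Il15 had 93, 147 and 123 at 24 h and 204, 185 and 170 at 7 days (log2 change 0.64, SE 0.15, adjusted p = 0.00648). Of 29 cytokine receptors Lifr and Tgfbr2 rose and Csf2rb fell, against 3.72% and 8.44% of all tested genes. The share of receptors that fell was below that of all genes. Il1b had 597, 185 and 578 at 24 h and 125, 128 and 41 at 7 days and did not pass (log2 change -2.19, SE 0.93, adjusted p = 0.105), although its groups did not overlap. Without 24 h replicate 1 or 7 day replicate 2 the list held 5 members that fell. A single library was decisive for Csf3 (adjusted p of 0.0535 to 0.0797 without 24 h replicate 1 or 7 day replicates 2 or 3) and Il1rn (adjusted p of 0.0632 to 0.111 without 24 h replicates 1 or 2 or 7 day replicates 2 or 3). Removal of 1 library undid the calls of Tnfsf9 (adjusted p of 0.0502 to 0.0964 without 24 h replicates 1 or 3 or 7 day replicates 1 or 2) and Tnfsf10 (adjusted p of 0.0628 to 0.139 without 24 h replicates 1 or 2 or 7 day replicates 2 or 3). The rule was not met in every subset of libraries for Il15 (adjusted p of 0.0281 to 0.0555 without 24 h replicate 1 or 7 day replicate 1, the change being within 1.5-fold where p stayed under 0.05) and Lifr (adjusted p of 0.0685 to 0.0916 without 24 h replicates 1 or 2 or 7 day replicate 3). Fewer libraries did not suffice to call Tgfbr2 (adjusted p = 0.0628 without 7 day replicate 1) and Csf2rb (adjusted p of 0.0523 to 0.172 without 24 h replicates 1, 2 or 3 or 7 day replicate 3).

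**Figure D2:**
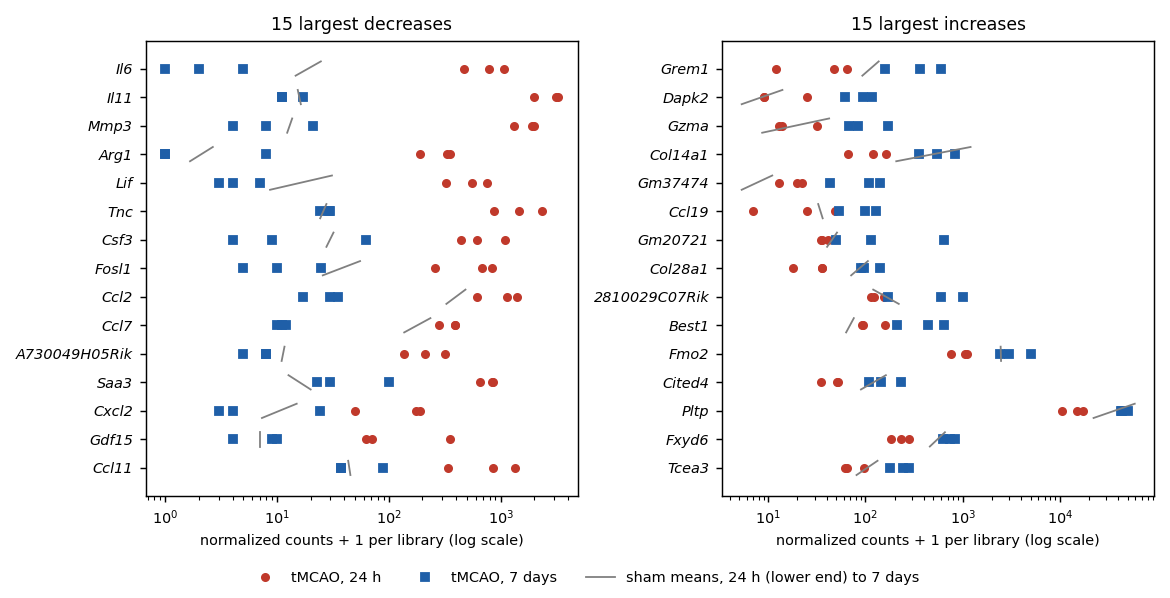
Normalized counts plus 1 (log scale) in each ipsilateral library for the 15 genes with the largest decrease (left) and the 15 with the largest increase (right) from 24 h to 7 days after tMCAO. Red circles are the 24 h and blue squares the 7 day tMCAO libraries, and each grey line runs from the sham mean at 24 h (lower end) to that at 7 days (upper end). No circle overlaps the squares of its row, by the rule that chose the genes, and the 7 day squares of Tnc and Il11 lie near the sham means.

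Many chemokines that draw myeloid cells fell. Of 27 tested ligands 11 fell and 2 rose, with a median log2 change of -1.74 against -0.04 over all genes. Cxcl3, a neutrophil attractant, had 135, 93 and 48 at 24 h and 1, 0 and 0 at 7 days (log2 change -6.09, SE 0.59, adjusted p = 2.85e-06). The 7 day group held 1 estimated read, and the ratio of reads per depth was 283.0 with a counting interval of 50.3 to 11200.0 (95%, exact binomial, counting error only). Cxcl2, another neutrophil attractant, had 191, 175 and 49 at 24 h and 23, 2 and 3 at 7 days (log2 change -4.17, SE 1.11, adjusted p = 0.0127). Ccl2, a chemoattractant of monocytes, had 1388, 1149 and 609 at 24 h and 34, 29 and 16 at 7 days (log2 change -5.25, SE 1.43, adjusted p = 0.0148). Ccl7, another, had 394, 393 and 278 at 24 h and 11, 9 and 10 at 7 days (log2 change -5.0, SE 1.1, adjusted p = 0.00371). Sham libraries varied widely in both, with a mean of 326 ± 500.3 (SD, n = 3) for Ccl2 at 24 h. Ccl11, which attracts eosinophils, had 848, 1353 and 339 at 24 h and 87, 36 and 36 at 7 days (log2 change -3.89, SE 0.54, adjusted p = 0.0001). Pf4, a chemokine of platelets and resident macrophages, had 497, 441 and 418 at 24 h and 117, 112 and 106 at 7 days (log2 change -2.0, SE 0.28, adjusted p = 0.000107). The other members that fell were Ccl22, Ccl9, Ccl12, Ccl6 and Ccl4. In the opposite direction, Cxcl12, a chemokine of vessels and stroma that retains cells bearing CXCR4, rose, with 6309, 6617 and 7006 at 24 h and 14586, 12208 and 14629 at 7 days (log2 change 1.05, SE 0.16, adjusted p = 0.000246). Ccl19, a lymphocyte attractant, had 6, 48 and 24 at 24 h and 129, 98 and 53 at 7 days (log2 change 2.11, SE 0.54, adjusted p = 0.0101). The ligands that fell numbered 7 without 24 h replicate 1 and 6 without 7 day replicate 3. Calls lost with 1 library left out were those of Cxcl2 (adjusted p of 0.0528 to 0.0604 without 24 h replicate 1 or 7 day replicates 2 or 3) and Ccl2 (adjusted p of 0.0541 to 0.0596 without 24 h replicate 1 or 7 day replicate 3). Single libraries decided the calls of Ccl22 (adjusted p of 0.068 to 0.106 without 24 h replicates 1 or 3 or 7 day replicates 2 or 3) and Ccl9 (adjusted p = 0.0578 without 7 day replicate 3). Leaving out 1 library ended the calls of Ccl4 (adjusted p of 0.061 to 0.164 without 24 h replicates 1 or 3 or 7 day replicates 1, 2 or 3) and Ccl19 (adjusted p = 0.078 without 24 h replicate 1).

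Markers of macrophages and monocytes moved with these genes. Of 13 tested markers 6 fell and 0 rose, among them Ccr2 and Mrc1. Ccr2, the receptor of Ccl2, had 612, 417 and 686 at 24 h and 258, 289 and 54 at 7 days (log2 change -1.8, SE 0.49, adjusted p = 0.0136). Mrc1, a mannose receptor of perivascular macrophages, had 1328, 1151 and 2996 at 24 h and 643, 704 and 531 at 7 days (log2 change -1.42, SE 0.26, adjusted p = 0.00102). The summed panel ranged from 5862 to 11475 at 24 h and from 2944 to 4517 at 7 days, and from 3359 to 6143 in the sham libraries. Arg1, an arginase of alternatively activated macrophages, had 329, 349 and 189 at 24 h and 7, 0 and 0 at 7 days (log2 change -7.13, SE 0.7, adjusted p = 2.85e-06). Saa3, an acute-phase protein, had 843, 847 and 648 at 24 h and 100, 22 and 29 at 7 days (log2 change -4.23, SE 0.71, adjusted p = 0.000424). By limma none of the 11 tested neutrophil markers passed, with 1 at an unadjusted p under 0.05 and 1 called with voom weights, and their sum ranged from 27930 to 39270 at 24 h and from 7652 to 40971 at 7 days. All 11 had a negative log2 change, with a median of -1.01 after tMCAO and -0.50 in sham mice. In such bulk libraries fewer cells of a type and less RNA per cell cannot be told apart, and the part of these cells in the cytokine changes was not tested. The integrin Itgam of the same cells fell (252, 195 and 231 at 24 h and 101, 93 and 49 at 7 days, log2 change -1.53, SE 0.26, adjusted p = 0.00057). Its partner Itgb2 had 966, 604 and 755 at 24 h and 588, 699 and 421 at 7 days with overlapping groups (log2 change -0.45, SE 0.23, adjusted p = 0.185). Macrophage and monocyte markers that fell numbered 4 without 24 h replicate 1, 4 without 7 day replicate 2 and 3 without 7 day replicate 3. With 1 library removed the rule was missed by Ccr2 (adjusted p of 0.0538 to 0.0876 without 24 h replicate 1 or 7 day replicate 3).

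**Figure D3:**
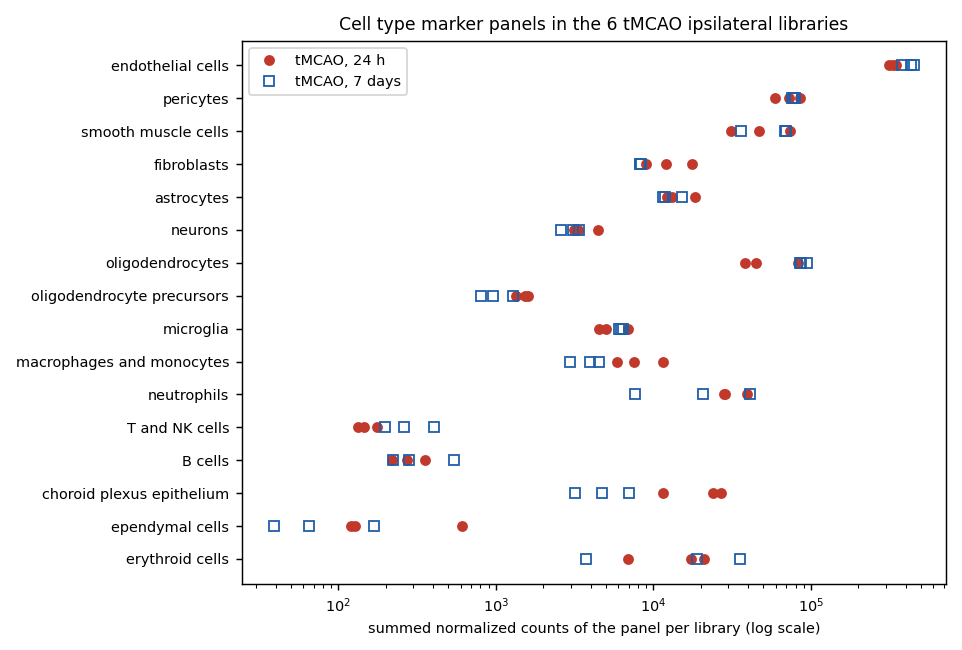
Summed normalized counts (log scale) of 16 cell type marker panels in each of the 6 ipsilateral tMCAO libraries, with red circles for 24 h and open blue squares for 7 days. The endothelial sums of 380232 to 454258 at 7 days lie above the 313639 to 349480 at 24 h, the macrophage and monocyte and the choroid plexus sums lie below, and the sums of pericytes, smooth muscle cells, astrocytes and neutrophils overlap.

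Leukocyte adhesion molecules of the endothelium were mostly not called. Of 16 tested members Podxl rose (19741, 26945 and 24694 at 24 h and 40889, 41730 and 31481 at 7 days, log2 change 0.68, SE 0.15, adjusted p = 0.00383). Mcam fell (11103, 9773 and 11043 at 24 h and 5869, 6594 and 7035 at 7 days, log2 change -0.71, SE 0.16, adjusted p = 0.00365). Each was 1 of 16, near the 3.72% of all tested genes that rose and the 8.44% that fell. The selectin Sele had 816, 1156 and 846 at 24 h and 665, 572 and 54 at 7 days and did not pass (log2 change -1.75, SE 1.46, adjusted p = 0.43). Selp, another selectin, had 2519, 2890 and 2406 at 24 h and 1660, 855 and 205 at 7 days and did not pass either (log2 change -1.97, SE 1.6, adjusted p = 0.419). Both were lower in every 7 day library. Icam1 had overlapping groups (5027, 4004 and 3661 at 24 h and 4118, 3345 and 3572 at 7 days, log2 change -0.19, SE 0.17, adjusted p = 0.464). Some calls depended on 1 library, namely Podxl (adjusted p = 0.0368 without 24 h replicate 1, where the change was within 1.5-fold).

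Several proteases of the matrix fell. Of 26 tested metalloproteinases 7 fell and 1 rose, and the sum of the list was 25168 to 46860 at 24 h and 9582 to 16810 at 7 days. Mmp3 (chr9:7445822-7455975), a stromelysin with broad matrix substrates, had 1892, 1996 and 1329 at 24 h and 20, 3 and 7 at 7 days (log2 change -7.61, SE 1.01, adjusted p = 5.74e-05). Mmp9, a gelatinase that cleaves basement membrane, had 513, 350 and 282 at 24 h and 205, 161 and 55 at 7 days (log2 change -1.59, SE 0.51, adjusted p = 0.0325). Its inhibitor Timp1 had 1048, 1595 and 971 at 24 h and 398, 180 and 163 at 7 days (log2 change -2.37, SE 0.67, adjusted p = 0.0179). The aggrecanase Adamts4 had 2776, 3543 and 1286 at 24 h and 396, 295 and 308 at 7 days (log2 change -2.82, SE 0.76, adjusted p = 0.0142), and Adam8, Mmp12, Mmp19 and Adamts5 also fell. Mmp28 rose (453, 592 and 565 at 24 h and 873, 951 and 1157 at 7 days, log2 change 0.89, SE 0.2, adjusted p = 0.00392). All 3 libraries at 24 h were above all 3 at 7 days for Mmp9 and Timp1, and all 7 day values of Timp1 lay above its 7 day sham mean of 97 ± 68.5 (SD, n = 3). For Mmp9 the 7 day sham mean was 52.3 ± 29.2 (SD, n = 3), and 7 day replicate 3 lay within the range of the sham libraries while the other two lay above it. Metalloproteinases that fell numbered 3 without 24 h replicate 1, 4 without 24 h replicate 2 and 4 without 7 day replicate 3. The call did not hold in every subset of libraries for Mmp9 (adjusted p of 0.0686 to 0.192 without 24 h replicates 1 or 2 or 7 day replicate 3) and Timp1 (adjusted p of 0.0598 to 0.0708 without 24 h replicate 2 or 7 day replicates 2 or 3). A single library was decisive for Adamts4 (adjusted p of 0.0574 to 0.0589 without 24 h replicates 1 or 2) and Adam8 (adjusted p of 0.0622 to 0.0739 without 24 h replicate 1 or 7 day replicates 2 or 3). Removal of 1 library undid the calls of Mmp12 (adjusted p of 0.0723 to 0.106 without 24 h replicates 1 or 2 or 7 day replicates 2 or 3) and Adamts5 (adjusted p of 0.0578 to 0.0801 without 24 h replicate 3 or 7 day replicates 1 or 3).

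Proteins of provisional matrix fell too. Tnc (chr4:63959785-64047015), tenascin C of injured tissue, had 1465, 2351 and 879 at 24 h and 29, 23 and 28 at 7 days (log2 change -5.72, SE 0.46, adjusted p = 4.76e-07), where the 7 day libraries lay within the range of the 7 day sham libraries (mean 26.7 ± 17.5 (SD, n = 3)). Thbs1, a matricellular protein that activates TGF-beta, had 6464, 3109 and 4692 at 24 h and 1115, 395 and 357 at 7 days (log2 change -3.07, SE 0.51, adjusted p = 0.000389). Of 49 tested genes of interstitial matrix and scar 10 fell, among them the crosslinking enzymes Lox and Loxl2, and 3 rose. Only 6 fell without 24 h replicate 3. Col4a1, a collagen of the basement membrane, had 73491, 81875 and 48910 at 24 h and 44559, 26267 and 29831 at 7 days (log2 change -1.03, SE 0.31, adjusted p = 0.0245). Col4a2, its partner chain, had 54985, 55282 and 35549 at 24 h and 30432, 17077 and 20688 at 7 days (log2 change -1.11, SE 0.3, adjusted p = 0.0144). Nid1, which links laminin to collagen IV, had 6993, 6877 and 5540 at 24 h and 4078, 3057 and 2766 at 7 days (log2 change -0.98, SE 0.15, adjusted p = 0.000236). Agrn, a heparan sulfate proteoglycan of the vascular basement membrane, went the other way with 4662, 5789 and 6141 at 24 h and 9264, 9723 and 10551 at 7 days (log2 change 0.84, SE 0.14, adjusted p = 0.000345). The laminin chain Lama3 rose as well (534, 515 and 610 at 24 h and 830, 1112 and 1134 at 7 days, log2 change 0.88, SE 0.2, adjusted p = 0.00418). In all, 5 of 24 basement membrane genes fell and 2 rose. Basement membrane genes that fell numbered 3 without 24 h replicate 1, 2 without 24 h replicate 2 and 3 without 7 day replicate 2. The matrix receptor chains Itga5 and Itgav fell (log2 change -0.72, SE 0.15, adjusted p = 0.00249 and log2 change -0.65, SE 0.16, adjusted p = 0.007) and Itga7, a laminin receptor of mural cells, rose (867, 724 and 1043 at 24 h and 1198, 2111 and 1925 at 7 days, log2 change 0.96, SE 0.2, adjusted p = 0.00203). The rule was not met in every subset of libraries for Col4a1 (adjusted p of 0.0775 to 0.0969 without 24 h replicates 1 or 2 or 7 day replicates 2 or 3) and Col4a2 (adjusted p of 0.0571 to 0.0685 without 24 h replicates 1 or 2 or 7 day replicate 2). Fewer libraries did not suffice to call Itga5 (adjusted p = 0.0194 without 24 h replicate 2, where the change was within 1.5-fold).

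Several regulators of coagulation fell. Of 21 tested genes 5 fell, Plau, Tfpi2, F3, F13a1 and Procr. Plau, the urokinase plasminogen activator, had 901, 625 and 586 at 24 h and 136, 145 and 167 at 7 days (log2 change -2.21, SE 0.29, adjusted p = 5.1e-05). F3, the tissue factor that starts clotting, had 395, 259 and 440 at 24 h and 131, 116 and 123 at 7 days (log2 change -1.52, SE 0.35, adjusted p = 0.0049). F8 rose at low counts, with 4, 7 and 12 at 24 h and 21, 39 and 14 at 7 days (log2 change 1.56, SE 0.39, adjusted p = 0.00879). For Plau and Tfpi2 the change was more negative than in sham mice (log2 differences -2.56 and -2.29, adjusted p = 0.000594 and 0.0394). Calls lost with 1 library left out were those of Procr (adjusted p = 0.0583 without 24 h replicate 1) and F8 (adjusted p of 0.0557 to 0.0647 without 24 h replicate 1 or 7 day replicate 2).

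Many genes of the cellular stress lists fell, while others of the same lists were not called. Hmox1 (chr8:75093621-75100589), heme oxygenase, had 6397, 7461 and 2069 at 24 h and 679, 425 and 357 at 7 days (log2 change -3.3, SE 0.35, adjusted p = 6.36e-06). Replicate 3 was the lowest of the 24 h libraries in Hmox1, Srxn1 and Nqo1, yet still above every 7 day library. Of 28 genes of the oxidative stress and metallothionein list 11 fell and 0 rose, and for 11 the change was more negative than in sham mice. Those that fell include Srxn1, Nqo1, Txnrd1, Gclm, Gclc and Gsr, redox enzymes that NRF2 is known to control. Srxn1 had 2144, 2543 and 947 at 24 h and 627, 461 and 431 at 7 days (log2 change -1.79, SE 0.33, adjusted p = 0.001). Nqo1 had 568, 750 and 336 at 24 h and 157, 181 and 137 at 7 days (log2 change -1.73, SE 0.32, adjusted p = 0.00105). The list sum overlapped between the times, with 134932 to 186127 at 24 h and 128123 to 212864 at 7 days. Of this list 7 fell with library medians set equal, and 7 without 24 h replicate 2. In the integrated stress and unfolded protein response list 12 of 29 fell and 1 rose, and its sum overlapped as well (80937 to 89453 at 24 h and 75756 to 108343 at 7 days). Mthfd2, a mitochondrial folate enzyme, had 466, 418 and 307 at 24 h and 65, 50 and 34 at 7 days (log2 change -3.0, SE 0.43, adjusted p = 0.000124). Asns, asparagine synthetase, had 945, 991 and 727 at 24 h and 374, 280 and 183 at 7 days (log2 change -1.71, SE 0.29, adjusted p = 0.000425). Chac1, which degrades glutathione, had 117, 88 and 65 at 24 h and 32, 20 and 16 at 7 days (log2 change -1.96, SE 0.29, adjusted p = 0.000133). The transcription factor Atf4 fell as well (7065, 6459 and 4697 at 24 h and 3861, 2986 and 2763 at 7 days, log2 change -0.92, SE 0.29, adjusted p = 0.0335). Slc7a5, an amino acid transporter of the same list and of the barrier, rose, with 11460, 11411 and 11826 at 24 h and 24018, 17279 and 24682 at 7 days (log2 change 0.91, SE 0.24, adjusted p = 0.0109). Of 28 heat shock and chaperone genes 5 fell: Hsph1, Hspe1, Hspa5 (16838, 17770 and 17513 at 24 h and 11452, 10474 and 9651 at 7 days, log2 change -0.73, SE 0.12, adjusted p = 0.000384), Hspa9 and Stip1. Gdf15, a stress cytokine, had 350, 70 and 62 at 24 h and 3, 9 and 8 at 7 days (log2 change -4.03, SE 0.59, adjusted p = 0.000139), with replicate 1 far above the other 24 h libraries. The heat shock sum was 106746 to 118144 at 24 h and 82817 to 95834 at 7 days, and 3 heat shock genes fell with medians set equal. Of the integrated stress list 8 fell without 7 day replicate 3. Single libraries decided the calls of Gclm (adjusted p = 0.0364 without 24 h replicate 2, where the change was within 1.5-fold) and Gclc (adjusted p = 0.00674 without 24 h replicate 1, where the change was within 1.5-fold). Leaving out 1 library ended the calls of Gsr (adjusted p of 0.0512 to 0.103 without 24 h replicates 1 or 2 or 7 day replicates 2 or 3) and Atf4 (adjusted p of 0.0881 to 0.134 without 24 h replicates 1 or 2 or 7 day replicates 2 or 3). With 1 library removed the rule was missed by Stip1 (adjusted p of 0.00235 to 0.00386 without 24 h replicates 1 or 2 or 7 day replicates 1 or 3, where the change was within 1.5-fold).

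The element that ATF4 is known to bind was looked for in the promoters of the integrated stress list. The motif TGATGNAA, searched on both strands in the 250 bases before each RefSeq start (GRCm38.p6), was found for 6 of 26 list members with a promoter in the table and for 2.4% of the 11589 tested genes with one, and for 3 of the 10 members that fell. It was also found for 3 of the 16 members not called. The stretches of Chac1 (chr2:119351009-119351096, plus strand) and Asns (chr6:7693210-7693272, minus strand) are shown with the motif in capitals (on the opposite strand in Chac1), as the 2 members with the largest decrease that hold it.
Chac1: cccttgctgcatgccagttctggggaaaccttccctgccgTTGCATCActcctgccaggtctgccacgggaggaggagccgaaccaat
Asns: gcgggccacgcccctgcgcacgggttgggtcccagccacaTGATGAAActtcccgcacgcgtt

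Of the 36 pathway lists, ribosome biogenesis had the largest share of members called. Of 48 tested genes 32 fell and 0 rose, all 48 had a negative log2 change, and in 44 the libraries of the 2 times did not overlap, against 34.2% of all genes. The list sum was 47538 to 56325 at 24 h and 32296 to 34709 at 7 days. Rrp12, a processing factor of pre-ribosomes, had 369, 328 and 291 at 24 h and 113, 120 and 93 at 7 days (log2 change -1.59, SE 0.22, adjusted p = 8.06e-05). Tsr1 had 755, 640 and 568 at 24 h and 264, 250 and 237 at 7 days (log2 change -1.37, SE 0.18, adjusted p = 6.55e-05). Nop58 (chr1:59684977-59719044), a core protein of box C/D particles, had 1576, 1393 and 1215 at 24 h and 643, 576 and 429 at 7 days (log2 change -1.35, SE 0.16, adjusted p = 1.84e-05). Fbl, the methyltransferase of these particles, had 642, 592 and 431 at 24 h and 242, 262 and 204 at 7 days (log2 change -1.22, SE 0.17, adjusted p = 8.39e-05). For 36 of the 48 the change was more negative than in sham mice, where the median was 0.17 and none was called. The count stayed between 29 and 34 without any 1 library, and was 28 with medians set equal. The motif CACGTG (E-box) was found before the start of 2 of 41 members and of 9.5% of the tested genes with a promoter. Of the 77 cytosolic ribosomal proteins 2 rose and 1 fell, with a median log2 change of 0.225, and 11 rose with medians set equal, 16 without 7 day replicate 2, 5 without 24 h replicate 2 or 7 day replicate 3, 1 without 24 h replicate 1 and 0 without 7 day replicate 1. The one that fell was Rps2 (11843, 14072 and 9876 at 24 h and 7736, 6041 and 5714 at 7 days, log2 change -0.87, SE 0.15, adjusted p = 0.000472). Proteasome genes moved by smaller steps, with 7 of 43 called lower and 37 negative. Psmd14, a deubiquitinase of the lid, had 1924, 2170 and 1602 at 24 h and 1265, 1121 and 1053 at 7 days (log2 change -0.72, SE 0.09, adjusted p = 3.87e-05). Psmd3 had 4658, 4542 and 3317 at 24 h and 2569, 2272 and 2724 at 7 days (log2 change -0.71, SE 0.11, adjusted p = 0.000181). For 22 of the 43 the change was more negative than the sham change. Proteasome genes that fell numbered 3 with medians set equal, 3 without 24 h replicate 1, 3 without 24 h replicate 2 and 14 without 24 h replicate 3. Psmb9, a subunit of the immunoproteasome, rose (361, 413 and 421 at 24 h and 717, 734 and 697 at 7 days, log2 change 0.85, SE 0.19, adjusted p = 0.00505) and rose in sham mice too (log2 change 1.0).

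**Figure D4:**
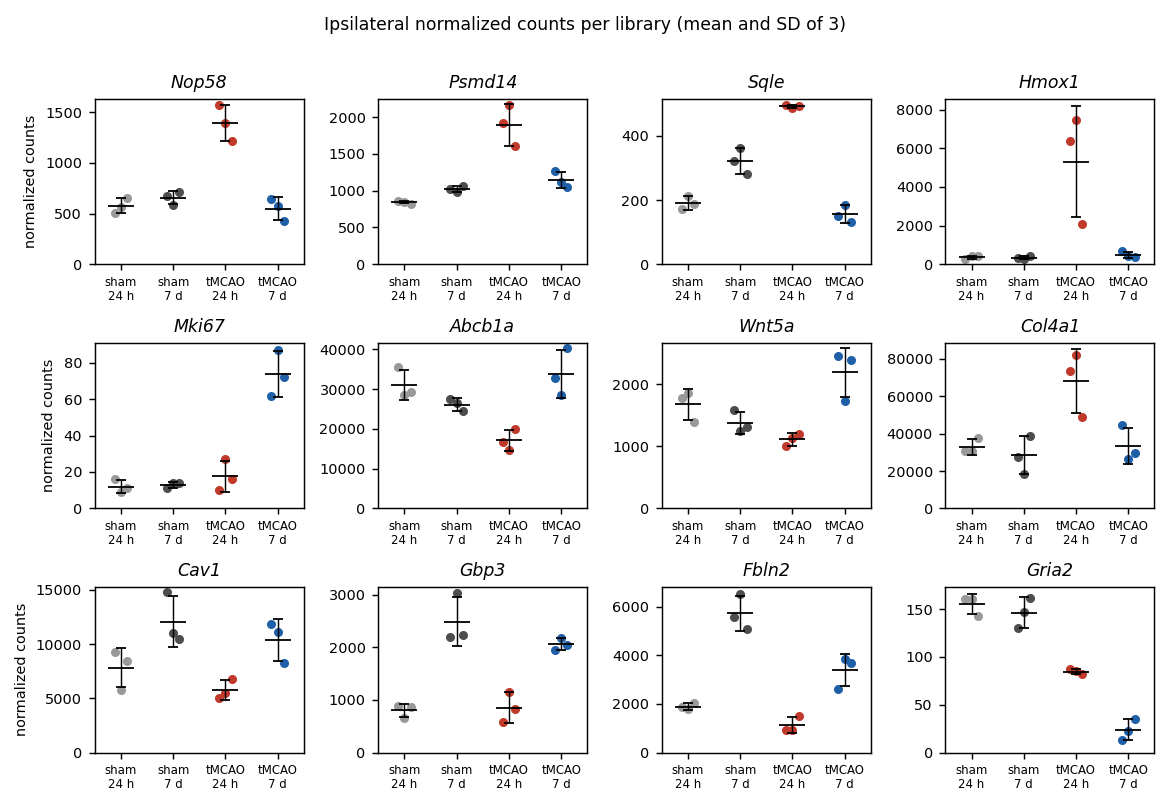
Normalized counts of 12 genes in each ipsilateral library, 1 panel a gene, with sham 24 h and 7 days in grey and tMCAO 24 h in red and 7 days in blue (bars are mean and SD of 3 libraries, axes start at 0). Nop58, Psmd14, Sqle and Hmox1 fall after tMCAO and not in sham mice, Mki67, Abcb1a and Wnt5a rise after tMCAO, and Gbp3 and Fbln2 rise in both.

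Genes of cholesterol synthesis and uptake were lower at 7 days after tMCAO, while the median sham change of the list was 0.30. Sqle, squalene epoxidase, a control point of the pathway (chr15:59315081-59331192), had 497, 486 and 492 at 24 h and 151, 186 and 132 at 7 days (log2 change -1.66, SE 0.21, adjusted p = 3.1e-05). In sham mice its mean went from 191 ± 21.7 (SD, n = 3) to 321 ± 40.5 (SD, n = 3), and the tMCAO change minus the sham change was -2.41 (adjusted p = 5.98e-05). Hsd17b7 had 267, 243 and 208 at 24 h and 84, 71 and 65 at 7 days (log2 change -1.69, SE 0.14, adjusted p = 5.57e-07). Cyp51, a sterol demethylase, had 655, 656 and 694 at 24 h and 309, 289 and 312 at 7 days (log2 change -1.14, SE 0.11, adjusted p = 2.85e-06). Of 28 tested genes 9 fell and 1 rose, 25 had a negative change, and for 13 the change was more negative than in sham mice, where 2 rose. The gene that rose was Mylip (670, 505 and 640 at 24 h and 1131, 945 and 867 at 7 days, log2 change 0.7, SE 0.12, adjusted p = 0.000652), which encodes a ubiquitin ligase. Without any 1 library 6 to 9 fell, with 6 without 7 day replicate 3. The sterol response element TCACNCCAC was found before the start of 1 of 21 members, Hmgcs1, and in 1.3% of the tested genes with a promoter. Some calls depended on 1 library, namely Mylip (adjusted p = 0.0057 without 24 h replicate 2, where the change was within 1.5-fold) and Hmgcs1 (adjusted p = 0.00521 without 7 day replicate 1, where the change was within 1.5-fold).

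Of 71 tested cell cycle genes 18 rose and 3 fell. Mki67 (chr7:135689784-135716361), a marker of cycling cells, had 10, 27 and 16 at 24 h and 62, 87 and 72 at 7 days (log2 change 2.09, SE 0.42, adjusted p = 0.00192), and its change was larger than that in sham mice by 1.96 (adjusted p = 0.0417). Ccna2, cyclin A, had 14, 29 and 7 at 24 h and 67, 79 and 43 at 7 days (log2 change 2.02, SE 0.48, adjusted p = 0.0065). Cdca3 had 4, 13 and 7 at 24 h and 40, 30 and 42 at 7 days (log2 change 2.2, SE 0.47, adjusted p = 0.00316). Tk1, thymidine kinase, had 4, 22 and 3 at 24 h and 44, 29 and 35 at 7 days (log2 change 2.24, SE 0.64, adjusted p = 0.0192). Most of the others act in mitosis, such as Ccnb2, Aurkb, Plk1, Birc5, Kif20a, Cenpf and Prc1. Among 24 h libraries replicate 2 was the highest in Mki67, Tk1, Ccna2 and Birc5. The 3 that fell were Ccnd1, Lmnb1 and Uhrf1. Ccnd1, cyclin D1 of the step from rest to cycle, had 3523, 2619 and 2694 at 24 h and 1696, 2142 and 1676 at 7 days (log2 change -0.68, SE 0.16, adjusted p = 0.00522). Lmnb1, a lamin, had 564, 517 and 444 at 24 h and 333, 316 and 277 at 7 days (log2 change -0.72, SE 0.13, adjusted p = 0.000831). Of these 1 fell without 24 h replicate 1 or with medians set equal. The number that rose was 7 without 24 h replicate 1 and 4 once a mean above 20 normalized counts was asked for. The filter mean covered all 24 libraries, so members low elsewhere, such as Tk1, could enter the test through the 7 day tMCAO group. Markers of T and NK cells also rose at low counts, 3 of 8: Gzma, a granule protease, had 12, 31 and 13 at 24 h and 82, 168 and 67 at 7 days (log2 change 2.45, SE 0.59, adjusted p = 0.00679), and Nkg7 and Klrb1c rose by 1.83 and 1.99. The panel sum was 134 to 176 at 24 h and 197 to 403 at 7 days. In sham mice it was 93 to 131 at 24 h and 185 to 282 at 7 days. Gzma in sham mice had 4, 12 and 7 at 24 h and 22, 34 and 68 at 7 days. The median log2 change of the panel was 0.416 after tMCAO and 0.982 in sham mice, where 0 members were called. For 0 of the 8 was the tMCAO change called different from the sham change. Only 1 of these markers rose without 24 h replicates 1 or 3 or 7 day replicates 1 or 2, and cell division itself was not measured. The CCAAT box stood before the start of 39 of 57 cell cycle members and of 39.8% of the tested genes with a promoter. The call did not hold in every subset of libraries for Tk1 (adjusted p of 0.0516 to 0.0927 without 24 h replicates 1 or 3 or 7 day replicates 1 or 3) and Ccnb2 (adjusted p = 0.0538 without 24 h replicate 1). A single library was decisive for Aurkb (adjusted p of 0.0549 to 0.0758 without 24 h replicate 1 or 7 day replicate 1) and Plk1 (adjusted p of 0.058 to 0.164 without 24 h replicates 1, 2 or 3 or 7 day replicate 3). Removal of 1 library undid the calls of Birc5 (adjusted p of 0.0736 to 0.147 without 24 h replicates 1 or 3 or 7 day replicates 1 or 2) and Kif20a (adjusted p = 0.0731 without 24 h replicate 1). The rule was not met in every subset of libraries for Cenpf (adjusted p = 0.0739 without 24 h replicate 1) and Prc1 (adjusted p of 0.0758 to 0.148 without 24 h replicates 1 or 3 or 7 day replicates 2 or 3). Fewer libraries did not suffice to call Ccnd1 (adjusted p = 0.0444 without 24 h replicate 1, where the change was within 1.5-fold) and Uhrf1 (adjusted p of 0.061 to 0.194 without 24 h replicates 1, 2 or 3 or 7 day replicates 1 or 3). Calls lost with 1 library left out were those of Nkg7 (adjusted p of 0.0812 to 0.152 without 24 h replicates 1 or 3 or 7 day replicates 1 or 2) and Klrb1c (adjusted p of 0.0541 to 0.0909 without 24 h replicates 1, 2 or 3 or 7 day replicates 1 or 2).

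Several transporters of the blood-brain barrier were higher at 7 days. Of 44 tested genes 10 rose and 3 fell, with a sum of 323097 to 358007 at 24 h and 432615 to 533014 at 7 days. Abcb1a (chr5:8660077-8748575), the efflux pump P-glycoprotein, had 16641, 14711 and 19865 at 24 h and 32770, 28391 and 40324 at 7 days (log2 change 0.98, SE 0.16, adjusted p = 0.0003). At 24 h all 3 libraries lay below the 24 h sham mean of 31077 ± 3783 (SD, n = 3), at 7 days all 3 lay above the 7 day sham mean of 26104 ± 1544 (SD, n = 3), and the change exceeded that in sham mice by 1.23 (adjusted p = 0.00172). Abcc4, an efflux pump of organic anions, had 5574, 7686 and 6187 at 24 h and 17387, 11392 and 13729 at 7 days (log2 change 1.12, SE 0.28, adjusted p = 0.00948). Atp10a, a lipid flippase, had 4708, 3978 and 6644 at 24 h and 8325, 8904 and 12060 at 7 days (log2 change 0.95, SE 0.23, adjusted p = 0.00691). Slc19a3, a thiamine transporter, had 873, 839 and 1222 at 24 h and 1941, 1710 and 1901 at 7 days (log2 change 0.94, SE 0.18, adjusted p = 0.00118). The thyroid hormone transporter Slco1c1, the taurine transporter Slc6a6, and Abcg2 also rose. Abcb1b, the second P-glycoprotein gene, fell (790, 566 and 598 at 24 h and 385, 280 and 326 at 7 days, log2 change -0.97, SE 0.17, adjusted p = 0.00075) and fell in sham mice too (log2 change -1.14). The glucose transporter Slc2a1 had 129950, 133462 and 119196 at 24 h and 216414, 144551 and 194319 at 7 days, with no overlap, but did not pass (log2 change 0.52, SE 0.34, adjusted p = 0.31). Mfsd2a, the lipid transporter that restrains transcytosis, overlapped (4021, 2666 and 3764 at 24 h and 3792, 3558 and 4178 at 7 days, log2 change 0.16, SE 0.21, adjusted p = 0.63). For 7 members the change was more positive than in sham mice. Of 15 endothelial markers 3 rose, and the panel sum was higher in every 7 day library. Its log2 ratio of the means was 0.345 against 0.54 for the transporters. Abcb1a belongs to both lists, so the sums are not separate measures. The part of endothelial content in the transporter changes was not tested. Without 24 h replicate 1 the transporters that rose numbered 5 and those that fell 1. Endothelial markers that rose numbered 5 without 24 h replicate 2 or with medians set equal. Single libraries decided the calls of Abcc4 (adjusted p = 0.0506 without 24 h replicate 1) and Slco1c1 (adjusted p of 0.099 to 0.213 without 24 h replicates 1 or 2 or 7 day replicates 2 or 3). Leaving out 1 library ended the calls of Slc6a6 (adjusted p of 0.0567 to 0.0922 without 24 h replicate 1 or 7 day replicate 3) and Abcg2 (adjusted p = 0.0569 without 24 h replicate 1).

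No junction gene was called. By limma none of 29 tested tight and adherens junction genes passed, with 6 at an unadjusted p under 0.05 and 0 called with precision weights from estimated reads (limma voom). With medians set equal 3 of them rose, and without 7 day replicate 2, 2 rose and 1 fell. Cldn5, the main claudin of brain endothelium, had 47535, 48060 and 42176 at 24 h and 73846, 60700 and 72163 at 7 days (log2 change 0.58, SE 0.16, adjusted p = 0.0166). Ocln, occludin, had 5798, 5836 and 6192 at 24 h and 8089, 7234 and 8307 at 7 days (log2 change 0.4, SE 0.12, adjusted p = 0.0233). Tjp1, a scaffold protein of the junction, had 10290, 9953 and 11739 at 24 h and 15530, 14437 and 17192 at 7 days (log2 change 0.56, SE 0.13, adjusted p = 0.0068). The 7 day libraries were above the 24 h libraries in all 3 genes and their adjusted p were under 0.05, so it was the size of the change that kept them from the call. For Tjp1 the change was more positive than in sham mice by 0.87 (adjusted p = 0.00673). Cdh5, the endothelial cadherin, overlapped (19732, 25185 and 13656 at 24 h and 19582, 15542 and 16640 at 7 days, log2 change -0.14, SE 0.24, adjusted p = 0.716). Of 16 genes of caveolae, fenestration and vesicles 4 rose, the caveolar coat genes Cav1, Cavin1 and Cavin2, and Ager. Cav1 had 5057, 5448 and 6796 at 24 h and 11890, 11073 and 8207 at 7 days (log2 change 0.84, SE 0.23, adjusted p = 0.0142). Cavin2 had 4558, 4522 and 5818 at 24 h and 9768, 8706 and 10866 at 7 days (log2 change 0.98, SE 0.18, adjusted p = 0.00112). In sham mice the log2 change of Cav1 was 0.63 and did not pass. Plvap, the diaphragm protein of leaky vessels, had 692, 980 and 1127 at 24 h and 1060, 2045 and 1502 at 7 days (log2 change 0.7, SE 0.35, adjusted p = 0.168). With 1 library removed the rule was missed by Cav1 (adjusted p of 0.0546 to 0.0703 without 24 h replicate 1 or 7 day replicate 1) and Ager (adjusted p = 0.0582 without 24 h replicate 1).

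Several angiogenic tip cell genes fell while a few other endothelial regulators rose. Apln, the apelin peptide of sprouting cells, had 6818, 3074 and 1958 at 24 h and 296, 188 and 246 at 7 days (log2 change -3.84, SE 0.42, adjusted p = 8.73e-06), with replicate 1 the highest at 24 h. Angpt2, which destabilizes vessels, had 11478, 10959 and 4537 at 24 h and 3660, 822 and 1154 at 7 days (log2 change -2.45, SE 0.78, adjusted p = 0.0333). Its receptor Tek rose (7018, 8618 and 8784 at 24 h and 11855, 13826 and 15259 at 7 days, log2 change 0.74, SE 0.2, adjusted p = 0.0123). Vegfa had 209, 256 and 185 at 24 h and 84, 102 and 65 at 7 days (log2 change -1.37, SE 0.34, adjusted p = 0.00902). The Notch ligands Dll1 and Dll4, the Notch target Nrarp, Kcne3 and Gja5 fell, whereas the Notch target Hey1 rose (986, 1068 and 1043 at 24 h and 1751, 1883 and 2602 at 7 days, log2 change 0.99, SE 0.17, adjusted p = 0.00049). Sox17, a transcription factor of arterial and barrier endothelium, had 3432, 4165 and 4294 at 24 h and 6455, 7300 and 8850 at 7 days (log2 change 0.92, SE 0.16, adjusted p = 0.000736) and exceeded the sham change by 0.9 (adjusted p = 0.0189). In all 8 of 54 genes fell and 3 rose, against 8.44% and 3.72% of all tested genes. The share that rose was thus near that of all genes. The number that rose was 5 without 24 h replicate 2 and 6 with medians set equal. Kdr and Flt1, receptors of Vegfa, overlapped between the times. Genes of this list that fell numbered 5 without 24 h replicate 1 and 5 without 7 day replicate 3. Some calls depended on 1 library, namely Angpt2 (adjusted p of 0.0997 to 0.127 without 24 h replicates 1 or 2 or 7 day replicates 2 or 3) and Tek (adjusted p of 0.0554 to 0.0705 without 24 h replicate 1 or 7 day replicate 3). The call did not hold in every subset of libraries for Dll1 (adjusted p of 0.0652 to 0.0782 without 24 h replicate 2 or 7 day replicate 3) and Dll4 (adjusted p = 0.0589 without 24 h replicate 1). A single library was decisive for Kcne3 (adjusted p of 0.0521 to 0.0707 without 24 h replicate 1 or 7 day replicate 3).

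A few genes of the Wnt pathway moved, in both directions. Wnt5a (chr14:28504750-28527448), mostly a noncanonical ligand, had 1002, 1137 and 1199 at 24 h and 2447, 1735 and 2390 at 7 days (log2 change 0.96, SE 0.17, adjusted p = 0.000636). Wnt11, also noncanonical, had 76, 48 and 75 at 24 h and 130, 124 and 187 at 7 days (log2 change 1.14, SE 0.28, adjusted p = 0.00747). Sham means were lower at 7 days in both, from 1679 ± 251 (SD, n = 3) to 1379 ± 176 (SD, n = 3) for Wnt5a, and the changes differed by 1.24 for Wnt5a and 1.74 for Wnt11 (adjusted p = 0.00274 and 0.00823). Wnt5b and Notum, an enzyme that inactivates Wnt proteins, rose as well. Notum had 399, 341 and 516 at 24 h and 663, 634 and 1033 at 7 days (log2 change 0.87, SE 0.25, adjusted p = 0.0189). Dkk2 fell (287, 193 and 317 at 24 h and 88, 86 and 101 at 7 days, log2 change -1.5, SE 0.27, adjusted p = 0.000851), as did Sfrp1, Ror1, Wnt6 and Wnt10a, of which Wnt6 and Wnt10a had under 20 normalized counts in each of the 6 libraries. In all 4 of 55 rose and 5 fell, against 3.72% and 8.44% of all tested genes, so that the share that fell was near that of all genes. The co-receptor Lrp5 had 3719, 3727 and 3697 at 24 h and 4256, 3844 and 5498 at 7 days and did not pass (log2 change 0.27, SE 0.12, adjusted p = 0.125). Lrp6, another co-receptor, had 1676, 1610 and 1908 at 24 h and 2179, 2121 and 2566 at 7 days and did not pass (log2 change 0.4, SE 0.12, adjusted p = 0.0253). For both the change was more positive than that in sham mice, where it was -0.39 and -0.3 (difference 0.66 and 0.7, adjusted p = 0.0194 and 0.0135). Without 24 h replicate 1, 2 Wnt genes rose and 1 fell. The number that rose was 2 without 24 h replicate 2 or 7 day replicate 3, and 7 without 24 h replicate 3, without 7 day replicate 1 (where 2 fell) or with medians set equal. Of the TGF-beta and BMP list, 2 rose and 3 fell of 34, close to the shares of all genes, with 5 falling without 24 h replicate 2, 1 rising without 24 h replicate 1 and 4 rising with medians set equal. Grem1, a BMP antagonist, had 11, 63 and 47 at 24 h and 361, 596 and 157 at 7 days (log2 change 3.29, SE 0.84, adjusted p = 0.0102). Removal of 1 library undid the calls of Wnt5b (adjusted p of 0.0687 to 0.118 without 24 h replicates 1 or 2 or 7 day replicates 2 or 3) and Notum (adjusted p of 0.0667 to 0.111 without 24 h replicates 1 or 2 or 7 day replicate 3). The rule was not met in every subset of libraries for Sfrp1 (adjusted p of 0.0611 to 0.0791 without 24 h replicates 1 or 2 or 7 day replicate 1) and Ror1 (adjusted p of 0.0613 to 0.0955 without 24 h replicates 1 or 3 or 7 day replicates 1 or 3). Fewer libraries did not suffice to call Wnt6 (adjusted p of 0.0518 to 0.242 without 24 h replicates 1, 2 or 3 or 7 day replicate 1) and Wnt10a (adjusted p of 0.0601 to 0.0723 without 24 h replicate 1 or 7 day replicate 2). Calls lost with 1 library left out were those of Grem1 (adjusted p = 0.0738 without 24 h replicate 1).

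Interferon-stimulated genes rose after tMCAO and also in sham mice. Of 48 tested genes 21 rose and 1 fell, while in sham mice 11 rose, and the median log2 change was 0.58 after tMCAO and 0.67 in sham mice. Gbp3 (chr3:142560052-142573209), a guanylate-binding GTPase, had 575, 1157 and 828 at 24 h and 1948, 2177 and 2053 at 7 days (log2 change 1.33, SE 0.21, adjusted p = 0.000319), and its sham means were 805 ± 123 (SD, n = 3) and 2489 ± 463 (SD, n = 3) (log2 change 1.62). Ifit3, which binds foreign RNA, had 489, 1296 and 529 at 24 h and 1913, 1424 and 2036 at 7 days (log2 change 1.35, SE 0.26, adjusted p = 0.00121) and sham means of 609 ± 81.7 (SD, n = 3) and 1304 ± 169 (SD, n = 3). Irf7, the factor that amplifies the response, had 920, 2451 and 942 at 24 h and 3676, 2741 and 3160 at 7 days (log2 change 1.3, SE 0.25, adjusted p = 0.00145). At 24 h replicate 2 was the highest library in all of Gbp3, Ifit3, Ifit3b and Irf7. The change differed from that in sham mice for 3 members only, positively for 1 and negatively for 2. The positive one was Samhd1, a nucleotide hydrolase, with 1985, 2196 and 2243 at 24 h and 3870, 3718 and 4390 at 7 days (log2 change 0.9, SE 0.12, adjusted p = 8.39e-05, difference from the sham change 0.63). Without 24 h replicate 1, 10 members rose, and without 24 h replicate 2, 26 did. Of 18 genes of MHC class I and its loading 4 rose after tMCAO and 6 in sham mice, with 2 after tMCAO without 24 h replicate 1 and 8 without 24 h replicate 2 or with medians set equal. H2-T23 had 1730, 2352 and 2017 at 24 h and 4294, 3715 and 4202 at 7 days (log2 change 1.01, SE 0.12, adjusted p = 2.47e-05). Nlrc5, which switches on class I genes, had 81, 200 and 136 at 24 h and 288, 322 and 286 at 7 days (log2 change 1.19, SE 0.27, adjusted p = 0.00461). In the list of MHC class II and its loading 3 of 16 fell, Ifi30, H2-DMb1 and the costimulator Cd80. Cd80 had 60, 52 and 57 at 24 h and 14, 24 and 13 at 7 days (log2 change -1.72, SE 0.35, adjusted p = 0.00212). Only 1 fell without 24 h replicate 1, 24 h replicate 3 or 7 day replicate 3, as Ifi30 and H2-DMb1 lost the call there. 

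The stretches before the start of 3 interferon-stimulated genes are shown because many members of the list moved the same way and 1 motif recurs before their starts. The interferon-stimulated response element, searched on both strands as GAAA, any 2 bases and GAAA again, lay in the 250 bases before the start of 17 of 34 members with a promoter in the table, against 3.3% of 11589 tested genes, and of 10 of the 16 members that rose. It also lay before 6 of the 17 members not called and before the 1 that fell, Ifitm2. A match is a description of these letters only. The motif is in capitals in Ifit3 (chr19:34583367-34583456), Ifit3b (chr19:34607763-34607852) and Gbp3 (chr3:142559965-142560043), all on the plus strand of GRCm38.p6 and taken from RefSeq, and it reads on the opposite strand in all 3.
Ifit3: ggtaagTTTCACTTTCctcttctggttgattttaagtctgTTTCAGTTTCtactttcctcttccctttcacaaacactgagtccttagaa
Ifit3b: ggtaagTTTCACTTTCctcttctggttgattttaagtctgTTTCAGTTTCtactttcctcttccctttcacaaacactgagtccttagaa
Gbp3: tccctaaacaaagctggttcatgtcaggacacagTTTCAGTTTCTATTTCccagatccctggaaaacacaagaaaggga
The stretches of Ifit3 and Ifit3b are identical over 90 bases. The 2 genes are close copies, and the study's methods state that reads fitting more than 1 gene or place were left out, so the level of each rests on the reads that tell them apart and is uncertain.

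Other leading increases were shared with sham mice. Fbln2, fibulin 2 of elastic and vascular matrix (chr6:91212455-91272540), had 947, 946 and 1509 at 24 h and 2623, 3842 and 3692 at 7 days (log2 change 1.59, SE 0.22, adjusted p = 8.82e-05), and sham means went from 1893 ± 142 (SD, n = 3) to 5735 ± 727 (SD, n = 3) (log2 change 1.59). Col14a1, a collagen of fibroblasts, had 65, 119 and 161 at 24 h and 356, 841 and 541 at 7 days (log2 change 2.33, SE 0.4, adjusted p = 0.000559) and rose by 2.6 in sham mice. Pltp, a phospholipid transfer protein, had 10603, 15142 and 17233 at 24 h and 44142, 50583 and 42435 at 7 days (log2 change 1.7, SE 0.22, adjusted p = 3.95e-05) and rose by 1.41 in sham mice. For all 3 the difference between the changes did not pass (adjusted p = 0.999, 0.806 and 0.581). Of the 1943 genes called after tMCAO 30 were called in sham mice, 26 of them in the same direction. Increases that exceeded those in sham mice were found for Fxyd6, Col28a1 and Sparcl1, with differences of 1.16, 1.33 and 0.92. Fxyd6, a regulator of the sodium pump, had 230, 182 and 279 at 24 h and 826, 741 and 623 at 7 days (log2 change 1.67, SE 0.16, adjusted p = 2.85e-06). Col28a1 had 35, 17 and 35 at 24 h and 89, 96 and 139 at 7 days (log2 change 1.9, SE 0.27, adjusted p = 0.000107). Sparcl1, an adhesion-modulating matrix protein, had 22374, 21874 and 34364 at 24 h and 57859, 57624 and 53761 at 7 days (log2 change 1.14, SE 0.15, adjusted p = 7.58e-05). Pink1, a kinase of mitochondrial quality control, had 3664, 3782 and 4487 at 24 h and 5847, 5266 and 6944 at 7 days (log2 change 0.59, SE 0.13, adjusted p = 0.00338), just beyond the limit. Dapk2, a death-associated kinase, had 24, 8 and 8 at 24 h and 93, 61 and 115 at 7 days (log2 change 2.79, SE 0.51, adjusted p = 0.000871). Single libraries decided the calls of Pink1 (adjusted p of 0.0168 to 0.0253 without 24 h replicates 1 or 2 or 7 day replicate 3, where the change was within 1.5-fold).

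Phagocyte genes split. Cd5l (chr3:87357881-87371073), a secreted protein of macrophages, had 0, 2 and 1 at 24 h and 99, 59 and 73 at 7 days (log2 change 5.39, SE 0.55, adjusted p = 3.4e-06). The 24 h group held 3 estimated reads against 242 at 7 days, a ratio per depth of 70.7 with a counting interval of 23.9 to 345.0. Its sham means were 0 and 1.67, and the change exceeded that in sham mice (4.28, adjusted p = 0.00173). Trem2, Igf1, Gas6, Apoe and Cst7 rose too. Trem2, a lipid receptor of microglia and macrophages, had 147, 155 and 190 at 24 h and 314, 256 and 408 at 7 days (log2 change 0.97, SE 0.26, adjusted p = 0.0144). Igf1, a growth factor, had 45, 65 and 73 at 24 h and 183, 125 and 108 at 7 days (log2 change 1.16, SE 0.25, adjusted p = 0.00312). Msr1, Cd36, Fabp4, Plin2, Spp1, Cd63 and Cd68 fell. Msr1, a scavenger receptor, had 634, 340 and 498 at 24 h and 154, 88 and 78 at 7 days (log2 change -2.21, SE 0.33, adjusted p = 0.000143). Cd36, another, had 1394, 216 and 312 at 24 h and 182, 163 and 159 at 7 days (log2 change -1.43, SE 0.41, adjusted p = 0.0177). Fabp4, a lipid carrier, had 1914, 434 and 319 at 24 h and 182, 69 and 140 at 7 days (log2 change -2.4, SE 0.54, adjusted p = 0.00415). Replicate 1 at 24 h was far above the others in Cd36 and Fabp4, with the others at 216 to 434. Of 48 tested genes 6 rose and 7 fell, against 3.72% and 8.44% of all tested genes. The number that rose was 2 without 7 day replicate 3 and 10 with medians set equal. Of 12 microglial markers Siglech was called (19, 17 and 34 at 24 h and 37, 58 and 73 at 7 days, log2 change 1.24, SE 0.4, adjusted p = 0.0354), and the panel had a sum of 4494 to 6908 at 24 h and 6080 to 6423 at 7 days. In the complement list C4b rose (390, 580 and 691 at 24 h and 1200, 1209 and 1130 at 7 days, log2 change 1.13, SE 0.22, adjusted p = 0.00128) and Cfp, C3ar1 and C5ar1 fell, of 23 tested, with 1 falling without 24 h replicate 3 or 7 day replicate 3, and 3 rising without 24 h replicate 3 or with medians set equal. The share of complement genes that rose was near the 3.72% of all tested genes. Leaving out 1 library ended the calls of Trem2 (adjusted p of 0.065 to 0.076 without 24 h replicate 1 or 7 day replicate 3) and Gas6 (adjusted p of 0.0639 to 0.0848 without 24 h replicate 2 or 7 day replicate 3). With 1 library removed the rule was missed by Apoe (adjusted p of 0.114 to 0.128 without 24 h replicates 1 or 2 or 7 day replicate 3) and Cst7 (adjusted p of 0.0552 to 0.147 without 24 h replicates 1 or 3 or 7 day replicates 1, 2 or 3). Some calls depended on 1 library, namely Cd36 (adjusted p of 0.0545 to 0.0665 without 24 h replicate 1 or 7 day replicate 3) and Cd68 (adjusted p of 0.0533 to 0.21 without 24 h replicates 1 or 3 or 7 day replicates 2 or 3). The call did not hold in every subset of libraries for Siglech (adjusted p of 0.0894 to 0.139 without 24 h replicates 1 or 2 or 7 day replicates 2 or 3) and C3ar1 (adjusted p of 0.0517 to 0.0604 without 24 h replicates 2 or 3 or 7 day replicates 2 or 3). A single library was decisive for C5ar1 (adjusted p of 0.0575 to 0.12 without 24 h replicates 1 or 3 or 7 day replicates 2 or 3).

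Neurotransmitter receptor genes of neurons were lower at 7 days. Of 38 tested receptor genes for glutamate, GABA and glycine 16 fell and 0 rose, with 37 negative and a median log2 change of -1.06. Gria2, a subunit of AMPA receptors, had 87, 85 and 82 at 24 h and 13, 23 and 35 at 7 days (log2 change -1.9, SE 0.29, adjusted p = 0.000192) against sham means of 155 ± 10.4 (SD, n = 3) and 146 ± 16 (SD, n = 3). Grin2a, of NMDA receptors, had 48, 55 and 60 at 24 h and 9, 10 and 18 at 7 days (log2 change -2.11, SE 0.33, adjusted p = 0.000232). Of 10 neuron markers 5 fell and 1 rose. Syt1, a synaptic vesicle protein, had 527, 611 and 456 at 24 h and 73, 83 and 180 at 7 days (log2 change -2.35, SE 0.39, adjusted p = 0.000401). Snap25, of the release machinery, had 406, 583 and 410 at 24 h and 83, 104 and 127 at 7 days (log2 change -2.15, SE 0.32, adjusted p = 0.000147). Stmn2 was the one that rose (570, 1020 and 986 at 24 h and 1769, 2095 and 1944 at 7 days, log2 change 1.22, SE 0.2, adjusted p = 0.000324). The neuron panel summed to 3142 to 4436 at 24 h, 2612 to 3372 at 7 days and 6791 to 11236 in sham libraries, and the part of neuronal content in the receptor changes was not tested. The contralateral hemispheres of the same pools had a median change of 0.63 in the receptor list, with none called. The receptors that fell numbered 9 to 20 without any 1 library, with 9 without 7 day replicate 1 and 10 without 24 h replicate 1, and 6 with weights from estimated reads. Oligodendrocyte precursor markers fell for 3 of 10, but for 1 without 24 h replicate 1 or 7 day replicate 1, and the oligodendrocyte sum was 38092 to 82993 at 24 h and 85713 to 94150 at 7 days with 1 of 10 markers called. 

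Choroid plexus transcripts differed between the times. Of 10 markers 4 fell, with Ttr, transthyretin, at 16687, 7395 and 19655 at 24 h and 556, 2804 and 2056 at 7 days (log2 change -3.19, SE 1.06, adjusted p = 0.0407), and the sum ranged from 11547 to 26734 at 24 h and from 3195 to 7054 at 7 days. In sham libraries it ranged from 7376 to 98343. Folr1, Kcnj13 and Otx2 fell as well, with 1 of 10 falling without 24 h replicate 1 or 7 day replicate 1, and 2 without 24 h replicates 2 or 3 or 7 day replicate 3. Among the mural and fibroblast panels, the pericyte markers Pdgfrb (10345, 7311 and 10890 at 24 h and 5597, 5376 and 6915 at 7 days, log2 change -0.66, SE 0.18, adjusted p = 0.0136) and Abcc9 fell and Higd1b rose of 10. Both decreases were lost with medians set equal (adjusted p = 0.0305 for Pdgfrb with a change within the limit, and 0.0747 for Abcc9). Removal of 1 library undid the calls of Ttr (adjusted p of 0.0511 to 0.151 without 24 h replicates 1, 2 or 3 or 7 day replicates 1 or 3) and Folr1 (adjusted p of 0.055 to 0.113 without 24 h replicates 1 or 3 or 7 day replicates 1, 2 or 3). The rule was not met in every subset of libraries for Kcnj13 (adjusted p of 0.06 to 0.142 without 24 h replicates 1, 2 or 3 or 7 day replicate 1) and Pdgfrb (adjusted p of 0.0551 to 0.0687 without 24 h replicates 1 or 3 or 7 day replicate 2). Fewer libraries did not suffice to call Abcc9 (adjusted p of 0.0639 to 0.158 without 24 h replicates 1, 2 or 3 or 7 day replicates 2 or 3).

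Immediate early genes were partly lower. Fosl1, an AP-1 subunit, had 841, 677 and 258 at 24 h and 24, 9 and 4 at 7 days (log2 change -5.62, SE 1.47, adjusted p = 0.0116). Dusp5, a phosphatase of ERK, had 361, 270 and 159 at 24 h and 51, 54 and 25 at 7 days (log2 change -2.57, SE 0.66, adjusted p = 0.0106). Egr1 had 2468, 1548 and 1870 at 24 h and 783, 462 and 1130 at 7 days (log2 change -1.37, SE 0.38, adjusted p = 0.0158). With Dusp6 they made 4 of 29 that fell, while Klf4, a flow-responsive factor of endothelium, rose (2060, 2533 and 2278 at 24 h and 2728, 4096 and 4234 at 7 days, log2 change 0.66, SE 0.2, adjusted p = 0.0254). Without 24 h replicate 1 none of the 4 decreases was called. Of 21 NF-kappaB feedback genes Ptges and Nfkbib fell. Of all tested genes 8.44% fell and 3.72% rose. The share of NF-kappaB feedback genes that fell and that of immediate early genes that rose were near these. Calls lost with 1 library left out were those of Fosl1 (adjusted p of 0.0516 to 0.0518 without 24 h replicate 1 or 7 day replicate 3) and Dusp5 (adjusted p of 0.054 to 0.0569 without 24 h replicate 1 or 7 day replicate 3). Single libraries decided the calls of Egr1 (adjusted p of 0.0805 to 0.0895 without 24 h replicate 1 or 7 day replicate 2) and Dusp6 (adjusted p of 0.111 to 0.217 without 24 h replicates 1 or 2 or 7 day replicates 2 or 3). Leaving out 1 library ended the calls of Klf4 (adjusted p of 0.0526 to 0.111 without 24 h replicates 1 or 3 or 7 day replicates 2 or 3) and Ptges (adjusted p of 0.0751 to 0.134 without 24 h replicates 1 or 2 or 7 day replicates 2 or 3). With 1 library removed the rule was missed by Nfkbib (adjusted p of 0.0551 to 0.163 without 24 h replicates 1 or 2 or 7 day replicates 1, 2 or 3).

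A few genes that respond to glucocorticoids rose after tMCAO and not in sham mice. Hif3a had 309, 240 and 475 at 24 h and 761, 536 and 647 at 7 days (log2 change 0.97, SE 0.33, adjusted p = 0.0433) while its sham means went from 546 ± 199 (SD, n = 3) to 168 ± 35.9 (SD, n = 3), and the changes differed by 2.61 (adjusted p = 0.0015). Klf9 and Sult1a1 rose as well, 3 of 20 in the list, with sham log2 changes of -0.48 and -0.91. Klf9 had 1989, 1518 and 2031 at 24 h and 2874, 2816 and 3396 at 7 days (log2 change 0.72, SE 0.19, adjusted p = 0.0136). Sult1a1 had 2164, 1397 and 3260 at 24 h and 4891, 3580 and 5901 at 7 days (log2 change 1.13, SE 0.36, adjusted p = 0.0311). None of the 3 was called without 24 h replicate 2 or without 7 day replicate 3. Of 20 clock genes 1 rose, a share near the 3.72% of all tested genes. It was Npas2 (34, 45 and 28 at 24 h and 104, 56 and 84 at 7 days, log2 change 1.15, SE 0.28, adjusted p = 0.00824). Npas2 was higher at 7 days in sham mice too, with 106, 102 and 100 at 24 h and 240, 156 and 164 at 7 days. Of 33 genes of hypoxia and glycolysis 6 fell, including Slc2a3, Hk2, Pgk1 and Gapdh, and 2 rose, Kdm3a and Ndrg1. Kdm3a, a histone demethylase, had 882, 1009 and 1081 at 24 h and 1509, 1475 and 1766 at 7 days (log2 change 0.68, SE 0.16, adjusted p = 0.00571). Ndrg1 had 9283, 16463 and 10530 at 24 h and 28272, 21042 and 27468 at 7 days (log2 change 1.11, SE 0.35, adjusted p = 0.0302). Some calls depended on 1 library, namely Hif3a (adjusted p of 0.0535 to 0.176 without 24 h replicates 1 or 2 or 7 day replicates 1, 2 or 3) and Klf9 (adjusted p of 0.0611 to 0.0725 without 24 h replicate 2 or 7 day replicate 3). The call did not hold in every subset of libraries for Sult1a1 (adjusted p of 0.0705 to 0.155 without 24 h replicates 1 or 2 or 7 day replicates 1 or 3) and Hk2 (adjusted p of 0.0636 to 0.17 without 24 h replicates 1 or 3 or 7 day replicates 1, 2 or 3). A single library was decisive for Ndrg1 (adjusted p of 0.0784 to 0.133 without 24 h replicates 1 or 3 or 7 day replicates 1 or 3).

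**Figure D5:**
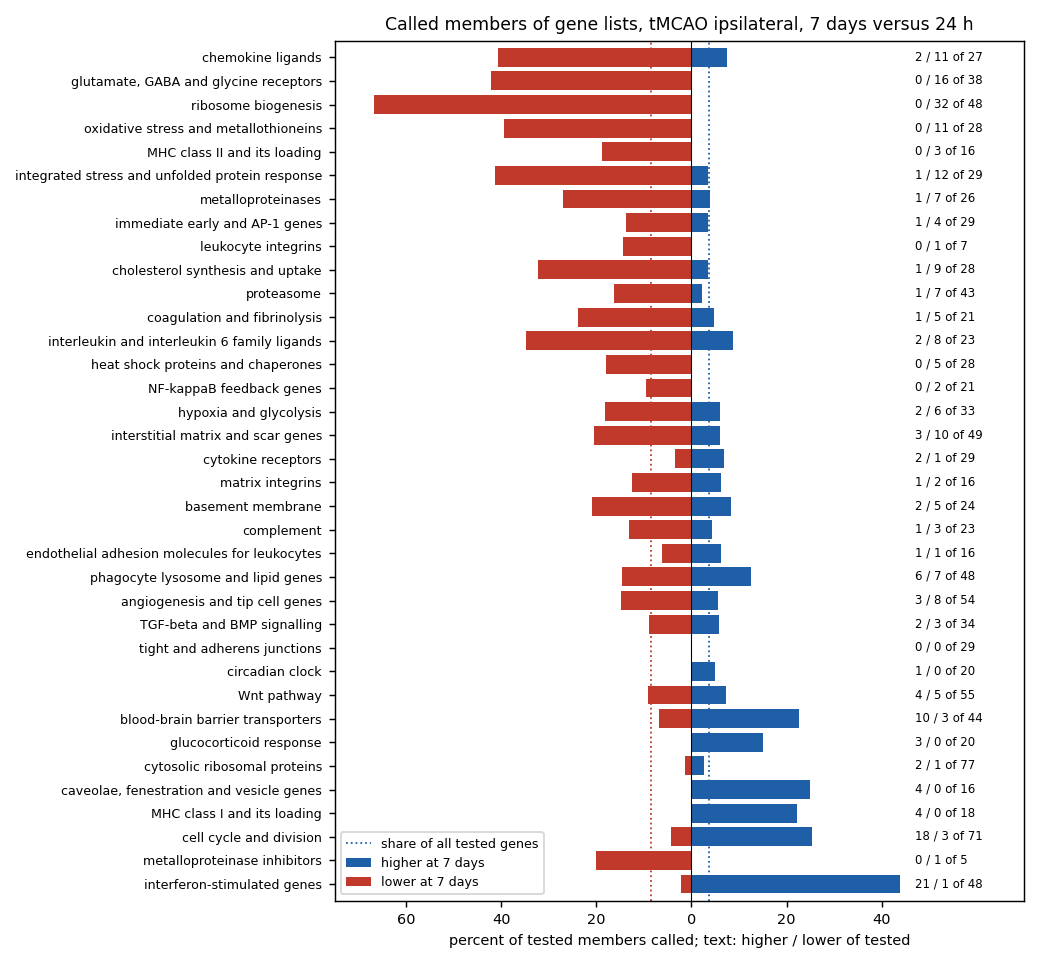
Percent of tested members called higher (blue, right) or lower (red, left) at 7 days than at 24 h in ipsilateral tMCAO libraries for 36 gene lists, ordered by median log2 change, with the counts as text. Dotted lines mark the share of all tested genes, 3.72% higher and 8.44% lower. Ribosome biogenesis has 32 of 48 members lower and the interferon-stimulated genes have 21 of 48 higher.

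Of 359 tested lincRNAs 14 rose and 22 fell, near or below the 3.72% and 8.44% of all tested genes. Of 302 antisense RNAs 20 rose and 5 fell. The libraries were stranded, but the strand setting of the counting is not given in the sources used here, so reads of an antisense RNA and its partner cannot be told apart with certainty. The leading named example, A730049H05Rik, had 210, 318 and 135 at 24 h and 7, 7 and 4 at 7 days (log2 change -4.93, SE 0.61, adjusted p = 2.56e-05) and sham means of 10 ± 7.55 (SD, n = 3) and 10.7 ± 8.33 (SD, n = 3). Gm37474 rose, with 19, 21 and 12 at 24 h and 107, 139 and 42 at 7 days (log2 change 2.28, SE 0.47, adjusted p = 0.00231), and Gm20721 and 2810029C07Rik rose with wide spread at 7 days, from 49 to 636 and from 170 to 1016. Removal of 1 library undid the calls of Gm20721 (adjusted p = 0.0551 without 7 day replicate 3) and 2810029C07Rik (adjusted p of 0.0561 to 0.197 without 24 h replicates 1, 2 or 3 or 7 day replicates 1 or 3).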

How the data were processed

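RNA of brain microvessels was sequenced from poly(A)-selected stranded libraries in 24 samples of 8 groups. The submitters' processing notes name FastQC, STAR 2.5.2b, featureCounts 1.5.1 (Subread), DESeq2 1.6.2 and the build mm10/GRCm38, while the study's methods name other versions of STAR and DESeq2. The deposited table holds a score per gene and library: read counts that the authors divided by DESeq2 size factors and rounded to whole numbers. Since rounded values are not raw reads, no count model was used. Size factors and read numbers were estimated from the gaps between low values. Depth limits low genes most: counting intervals cover counting error only.

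Values were taken as log2(value + 1), a gene was kept if its mean over the 24 libraries exceeded 5 (15982 of 17270), and limma 3.58.1 (R 4.3.3, with trend, all 8 groups in one fit) tested 7 days against 24 h in ipsilateral tMCAO libraries, unpaired, with Benjamini-Hochberg adjustment over all genes. A log2 fold change here is on the log2(value + 1) scale and understates changes of low genes. The filter mean included the groups compared, so genes low elsewhere, such as Cd5l, could enter through the group where they were high. The same contrast in sham ipsilateral and tMCAO contralateral libraries, and the difference between tMCAO and sham, came from the same fit, so an SE reflects the spread in all groups. A gene was called at an adjusted p under 0.05 and a change beyond 1.5-fold. The fit was tested on simulated data. Python 3.11.15 made tables and figures. Gene coordinates are the Ensembl ones given with the deposited values, on GRCm38. GENCODE M21 gave the transcript lengths and GC content used in an alternative fit. Alternatives covered pseudocounts, filters, scaling, weights, blocks and each library left out.

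Genes were named by rule: the 15 largest increases and decreases among called genes with non-overlapping libraries and a mean of at least 50, up to 3 called members per list and direction (in a list with none called, the member with the highest mean), and 12 genes the study names. Other genes were chosen after their values were seen. A few genes are not reported here, though counts over lists include them. The comparison and the gene lists were chosen with earlier results of these data known.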

Additional observations from a re-analysis of the deposited data

Results flagged for a closer look

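The results here stand out because the change from 24 h to 7 days differed between tMCAO and sham mice in a test of that difference (limma, adjusted p under 0.05 and a difference beyond 1.5-fold). The change was more positive after tMCAO for 389 genes and more negative for 908. Values below are log2 differences, the tMCAO change minus the sham change, for genes named by the rule of choice, apart from any not reported here.

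Among cytokines and chemokines the difference was -8.73 for Lif, -8.49 for Il6 and -7.24 for Il11, and -5.99 for Ccl7, -5.36 for Cxcl3 and -3.55 for Ccl11. Genes of macrophages, acute phase and stress had -7.99 for Arg1, -3.49 for Saa3, -4.08 for Gdf15, -1.69 for Itgam, -1.64 for Msr1 and -1.29 for Cfp. For proteases, coagulation and matrix it was -7.37 for Mmp3, -2.56 for Plau, -2.29 for Tfpi2, -5.81 for Tnc and -0.72 for Itga5. The transcript A730049H05Rik had -5.04. Endothelial and signalling genes had -4.09 for Apln, -1.60 for Vegfa, -3.01 for Dusp5 and -3.76 for Wnt10a.

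In the stress response lists the difference was -3.26 for Hmox1, -2.04 for Srxn1 and -1.77 for Nqo1, -2.28 for Mthfd2 and -1.70 for Asns, and -1.42 for Hsph1, -1.08 for Hspe1 and -0.61 for Hspa5. Ribosome biogenesis genes had -2.13 for Rrp12, -1.80 for Tsr1 and -1.55 for Nop58, the ribosomal protein gene had -1.25 for Rps2, and proteasome genes had -0.99 for Psmd14, -0.87 for Psmd3 and -0.77 for Psmd12. Cholesterol genes had -2.41 for Sqle, -1.91 for Hsd17b7 and -1.67 for Cyp51, with 1.01 for Mylip in the other direction. Receptors of neurons had -2.51 for Grin2a and -1.81 for Gria2. Of the cell cycle list -1.22 for Ccnd1 and -0.79 for Lmnb1 were negative and 1.96 for Mki67 positive.

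Positive differences in barrier genes were 1.23 for Abcb1a, 1.32 for Abcc4, 1.59 for Atp10a and 1.15 for Slc7a5. In the list of caveolae, fenestration and vesicles they were 0.89 for Cavin2 and 1.23 for Ager. Wnt genes had 1.24 for Wnt5a, 1.74 for Wnt11, 1.13 for Notum, 0.66 for Lrp5 and 0.70 for Lrp6. Other endothelial and matrix genes had 0.90 for Sox17, 0.64 for Agrn, 0.92 for Sparcl1 and 1.33 for Col28a1. In the glucocorticoid list the values were 2.615 for Hif3a, 2.04 for Sult1a1 and 1.20 for Klf9, and 1.03 for Kdm3a stood in the hypoxia list. Immune and phagocyte genes had 4.28 for Cd5l, 1.18 for Igf1, 1.22 for C4b, 0.63 for Samhd1 and 0.65 for H2-T23. The remaining genes were 1.16 for Fxyd6 and 0.66 for Pink1.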

How the results depend on the processing

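Of 95 comparison counts under alternatives 86 lay within 1.5 times the reported count. Genes higher at 7 days numbered 939 with library medians set equal, 1127 with no limit on the fold change and 338 to 723 without any 1 library. Genes lower numbered 798 to 1268 without any 1 library. The lowest counts, 338 and 798, came without 24 h replicate 1, where 55.9% of the 1943 called genes remained called, against 70.6% with only the groups compared in the fit and 83.7% with medians set equal. The sham comparison called 433 genes with array weights and 28 with only the groups compared, against 76. The contralateral comparison called 34 with array weights. The difference between tMCAO and sham called 1971 genes with array weights and 801 to 1444 without any 1 library, with 801 without 24 h replicate 1. The cause of these shifts was not tested. Deviations of same-numbered libraries correlated at -0.062, -0.088 and 0.033, so the numbers do not pair the samples, and a replicate block gave 655 genes higher and 1413 lower. Of 2972 values of named genes 2736 kept direction and call, 228 lost the call, 8 gained it and 0 reversed. All 7 day libraries were deeper than the 24 h libraries, so depth and time cannot be told apart, and genes of few reads are the least certain.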

Other observations

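In the remaining cell type panels few markers were called. Of 10 smooth muscle markers Pln rose and Actg2 fell, of 10 fibroblast markers Dcn fell, of 10 astrocyte markers Gja1 fell, and of 9 ependymal markers Dnah11 and Pifo fell. These calls rested on single libraries. With 1 library left out Pln, Gja1 and Actg2 each lost the call in 4 of 6 removals, Dnah11 in 5, Pifo in 2 and Dcn in 1, with adjusted p of 0.0567 to 0.25. No ependymal marker was called without 24 h replicate 1 or without 7 day replicate 1. The ependymal sum was 121 to 614 normalized counts at 24 h and 39 to 168 at 7 days. All 9 ependymal markers had a negative log2 change, with a median of -1.43. Of the fibroblast markers 9 were negative and 1 positive, with a median of -0.46. The fibroblast sum was 8982 to 17609 at 24 h and 8216 to 8326 at 7 days, without overlap. By limma none of 7 B cell and none of 7 erythroid markers was called, with 0 in each panel at an unadjusted p under 0.05 and 0 called with voom weights. The erythroid sum ranged from 6875 to 20979 at 24 h and from 3741 to 35288 at 7 days.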
